A study of Mus musculus with 4 samples.

Results

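Complement components and regulators were examined in the lens epithelium of mice after ultraviolet B (UVB) irradiation. The set was 9 named genes, taken by gene symbol: C3, C4b, C2, Cfb, Cfi, C1ra, Serping1, Cd55 and Cd59a. Of these, 8 genes had probe sets in the annotation used here, with 9 probe sets among the 28944 on the array. C1ra had a probe set of its own and another that it shares with its close copy C1rb. C3 is not listed in that annotation and was not analysed here.

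The UVB group was the lens epithelium of right eyes exposed to 30 mJ/cm2, and the Control group was that of left eyes of the same animals, covered with aluminum foil. All mice were 8-week-old C57BL/6 males, and tissue was taken 24 h after exposure. Each of 2 independent experiments gave 1 array per group. The methods give 3 mice, and do not say if RNA was pooled for an array. A lens epithelium dissected by hand can carry RNA of neighbouring tissue, and in such bulk samples fewer cells of a type and less RNA per cell cannot be told apart.

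Complement is a cascade of proteases that marks surfaces with C3 and C4 fragments, calls in phagocytes and can pierce membranes. The classical route starts when the protease C1r of the C1 complex activates C1s, which cleaves C4 and C2. The alternative route uses factor B, the product of Cfb, in place of C2. Host cells hold the cascade back with soluble inhibitors such as C1 inhibitor and factor I, and with membrane proteins such as CD55 and CD59. In the eye, which is sensitive to inflammation, such regulators are found on many cell surfaces.

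The values were log2 signals normalized by the authors. The 4 arrays had medians of 7.22 and 7.21 in UVB and of 7.19 and 7.20 in Control. The 10 lens epithelium markers, among them Foxe3, Pax6 and Cdh1, lay above the median of every array. UVB was compared with Control in limma with the experiment as a block, so that the eyes of an experiment form a pair. A probe set counted as called when its unadjusted p was under 0.05. Over all probe sets, 5.69% were called higher and 7.71% lower, but none had an adjusted p under 0.05. The lowest adjusted p was 0.357, and 3878 probe sets had an unadjusted p under 0.05. The methods' t-test also gave 0 at an adjusted p of 0.05, and a robust prior in limma gave 97 higher and 12 lower. Limma without the block gave 1915 higher and 3184 lower, but that fit underestimates the spread, because experiment means had been equalized. For a single gene, no exact permutation test on these arrays can give a two-sided p below 0.333, or below 0.5 on the pairs.

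Markers of other tissues of the eye differed between the groups. A marker was counted as higher or lower here if its difference had that sign in both experiments. Among the 28944 probe sets of the array, 24% met this rule as higher and 37.4% as lower. All 9 measured photoreceptor markers were higher in both experiments, with a mean log2 signal of 9.38 and 9.58 in UVB, against 8.74 and 8.55 in Control. Of 10 pigment epithelium markers, 9 were higher, with a mean of 8.79 and 8.71 in UVB, against 7.77 and 7.85 in Control. Of 10 macrophage and leukocyte markers, 8 were higher and 1 was lower, with a mean of 6.54 and 6.55 in UVB, against 6.31 and 6.29 in Control. Of 6 Müller glia markers, 4 were higher. Rlbp1 is on this list and on that of the pigment epithelium, and was counted as higher in both. Of the 10 lens epithelium markers, 3 were higher and 3 lower, and Foxe3 was called lower (log2 fold change −0.14, limma's adjusted p = 0.357). None of the lists had members at 0, since every array signal was at least 1.49.

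Across the 9 probe sets, 1 was called higher after UVB, and 0 were called lower, against 5.69% and 7.71% of all probe sets. The probe set called was Cd55, and 1 call among 9 is not set apart from the share over all probe sets. None passed the thresholds of the study, 1.8-fold and an unadjusted p of 0.01, which 0.0622% of all probe sets passed as higher. The p used here was that of limma with the block, whereas the study selected its genes with other software. In both experiments, 4 of the 9 were higher and 1 was lower, against 24% and 37.4% of all probe sets. The median log2 fold change was 0.11, with 0.01 in experiment 1 and 0.08 in experiment 2. Over all probe sets it was −0.02. The largest change of a complement gene in the set was 1.15-fold.

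**Figure D1:**
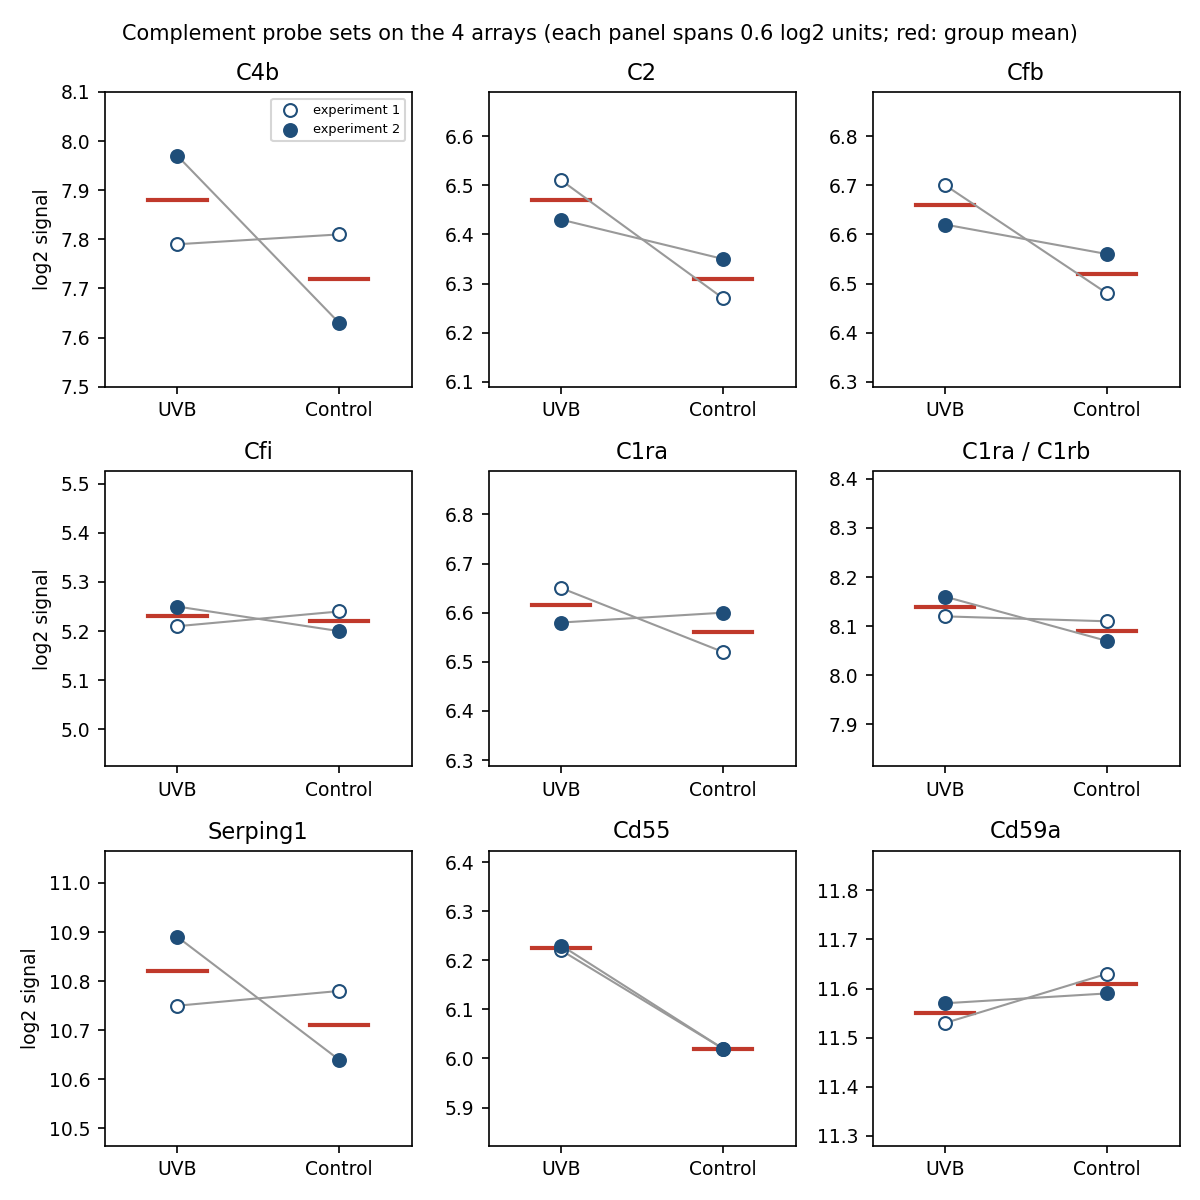
Log2 signals of the 9 complement probe sets on the 4 arrays, UVB on the left and Control on the right of each panel, with experiment 1 as open and experiment 2 as filled circles. Lines join the eyes of an experiment, red bars are group means, and every panel spans the same range of signal. Both lines of Cd55 run to a lower signal in Control by a similar step, whereas in C4b and Serping1 only experiment 2 does.

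Cd55, which encodes decay-accelerating factor, was the member called higher. This membrane protein takes apart the enzymes that cleave C3. Its log2 signals were 6.22 and 6.23 in UVB, against 6.02 and 6.02 in Control. UVB was higher than Control by 0.20 in experiment 1 and 0.21 in experiment 2. The log2 fold change was 0.205 (standard error 0.028), or 1.15-fold. Its 95% interval ran from 0.0955 to 0.315. Limma gave an adjusted p of 0.357, and the unadjusted p was 0.0137. Without the block the adjusted p was 0.0210, a call that 6.62% of all probe sets shared as higher. Over the 8 alternative fits that could test it, the adjusted p ranged between 0.0210 and 0.700. The signals lay below the median of each array. Most of the retinal and macrophage markers were higher in UVB as well, and their part in the change of Cd55 was not tested.

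The bases before the start of Cd55 are shown because it was the member called. They are the 250 bases upstream of a RefSeq start in GRCm38.p6, chr1:130462745-130462994, minus strand, with matches to the motifs searched in capitals.
Cd55: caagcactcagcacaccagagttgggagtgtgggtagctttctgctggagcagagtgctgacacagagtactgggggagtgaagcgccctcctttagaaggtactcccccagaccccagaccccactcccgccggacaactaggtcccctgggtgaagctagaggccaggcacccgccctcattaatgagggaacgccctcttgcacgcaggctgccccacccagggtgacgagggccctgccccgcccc
No capitals occur, since none of 6 motifs matched on either strand. These were TTCNNNGAA of interferon-gamma activated sites, TTTCNNTTT of interferon-stimulated elements, GGNNTTTCC of kappa-B sites, TTGCNNAA of C/EBP, TGANTCA of AP-1 and TAATCC of Otx2 and Crx. They were present in 7.02%, 9.37%, 4.93%, 9.56%, 6.75% and 6.25% of 32851 such windows, in that order. The absence of these letters here says nothing of the factors.

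Cd59a encodes CD59, the membrane protein that blocks the last step of pore formation. Its log2 signals were 11.53 and 11.57 in UVB, against 11.63 and 11.59 in Control. UVB was lower than Control by 0.10 in experiment 1 and by only 0.02 in experiment 2. The log2 fold change was −0.06 (standard error 0.038, limma's adjusted p = 0.510), with a 95% interval from −0.213 to 0.0931. The signals lay above the 75th percentile of each array. Cd59b, a second mouse gene for CD59, had log2 signals of 7.16 and 7.26 in UVB, against 7.38 and 7.29 in Control (log2 fold change −0.125, limma's adjusted p = 0.469).

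Serping1 encodes C1 inhibitor, which inactivates the proteases C1r and C1s. Its log2 signals were 10.75 and 10.89 in UVB, against 10.78 and 10.64 in Control. The differences were −0.03 in experiment 1 and 0.25 in experiment 2. Their mean was 0.11 (standard error 0.099, limma's adjusted p = 0.615), and the 95% interval from −0.283 to 0.503 includes both directions. Like Cd59a, Serping1 lay above the 75th percentile of each array.

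Cfi encodes factor I, a soluble protease that cuts C3b and C4b into inactive pieces. Its log2 signals were 5.21 and 5.25 in UVB, against 5.24 and 5.20 in Control. On every array Cfi was under the 25th percentile. The log2 fold change was 0.01 (standard error 0.038, limma's adjusted p = 0.901), with a 95% interval from −0.143 to 0.163. Median centring of the arrays turned its sign, to −0.01.

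**Figure D2:**
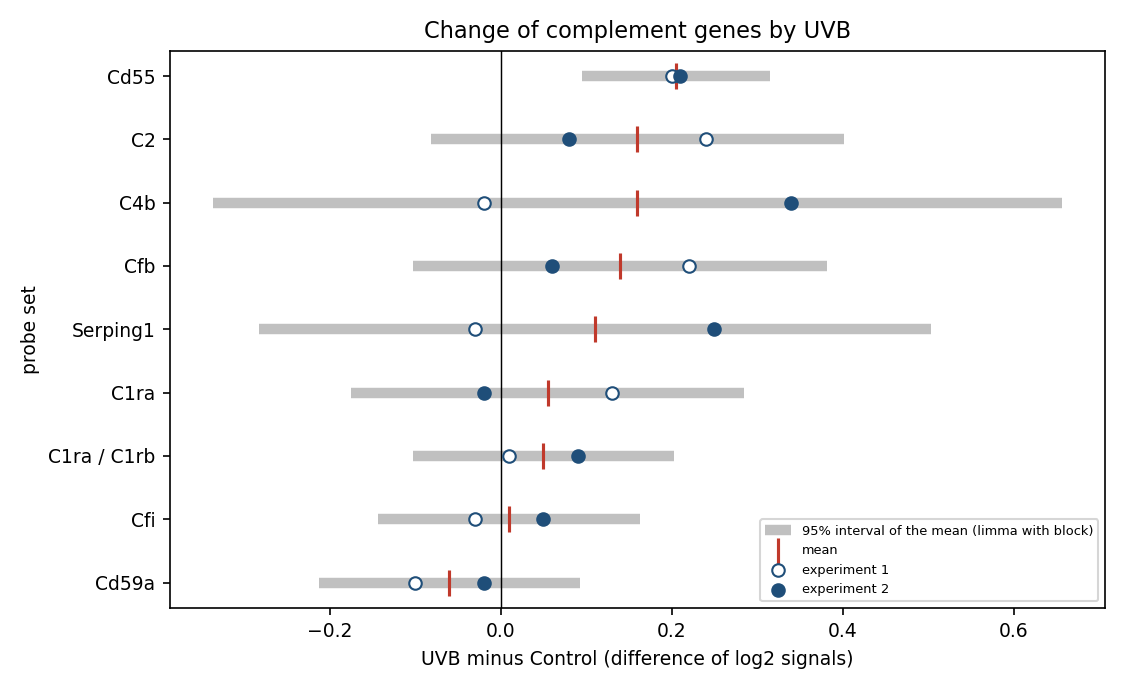
UVB minus Control, as a difference of log2 signals, for the 9 complement probe sets. Open circles are experiment 1, filled circles experiment 2, red marks their mean and grey bars the 95% interval from limma with the experiment as a block. The interval of Cd55 lies above 0, from 0.0955 to 0.315, and the other 8 include 0.

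C2 and Cfb encode the paralogous proteases of the classical and the alternative route, and lie next to each other on chromosome 17. C2 had log2 signals of 6.51 and 6.43 in UVB, against 6.27 and 6.35 in Control. Cfb had 6.70 and 6.62 in UVB, against 6.48 and 6.56 in Control. In both genes UVB was higher in each experiment, and the difference was larger in experiment 1. It was 0.24 and 0.08 for C2, and 0.22 and 0.06 for Cfb, in experiments 1 and 2. The log2 fold change of C2 was 0.16 (standard error 0.061, limma's adjusted p = 0.389), with a 95% interval from −0.0815 to 0.402. That of Cfb was 0.14 (standard error 0.061, limma's adjusted p = 0.410), with a 95% interval from −0.102 to 0.382. The unadjusted p of C2 was 0.109, and it was under 0.05 in 3 of 8 alternative fits. Both genes lay below the median of each array.

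C4b encodes complement C4, the substrate of C1s. Its log2 signals were 7.79 and 7.97 in UVB, against 7.81 and 7.63 in Control. The difference was −0.02 in experiment 1 and 0.34 in experiment 2. The mean was 0.16 (standard error 0.12, limma's adjusted p = 0.568), with a 95% interval from −0.337 to 0.657. C4a, a nearby copy of the gene, had a probe set of its own with 5.70 and 5.91 in UVB, against 5.93 and 5.73 in Control. How far the probes of one read RNA of the other was not tested.

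C4b and Serping1 shared the order of the experiments, with a difference near 0 in experiment 1 and above 0 in experiment 2. For C2 and Cfb the larger difference was that of experiment 1. With 1 pair of arrays per experiment, a difference between the experiments could not be tested.

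C1ra encodes C1r, the protease that starts the classical route within the C1 complex. Its own probe set had log2 signals of 6.65 and 6.58 in UVB, against 6.52 and 6.60 in Control. The difference was 0.13 in experiment 1 and −0.02 in experiment 2 (mean 0.055, standard error 0.058, limma's adjusted p = 0.654), with a 95% interval from −0.175 to 0.285. The probe set shared with C1rb had 8.12 and 8.16 in UVB, against 8.11 and 8.07 in Control. There the difference was 0.01 and 0.09 (mean 0.05, standard error 0.038, limma's adjusted p = 0.561), with a 95% interval from −0.103 to 0.203. The difference of 0.01 is the step to which the signals were rounded. The shared probe set cannot tell the RNA of C1ra from that of C1rb.

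The likeness of these copies extends beyond the transcript. Within the windows of 300 bases around their RefSeq starts in GRCm38.p6, 150 aligned columns held 139 identical bases, or 92.7%. The part of this stretch upstream of the C1ra start is shown for both genes, plus strand, with the longest identical run of 34 bases in capitals. It lies at chr6:124512522-124512620 for C1ra and at chr6:124570180-124570278 for C1rb.
C1ra: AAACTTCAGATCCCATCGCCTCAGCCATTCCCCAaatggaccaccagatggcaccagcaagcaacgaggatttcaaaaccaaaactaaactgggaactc
C1rb: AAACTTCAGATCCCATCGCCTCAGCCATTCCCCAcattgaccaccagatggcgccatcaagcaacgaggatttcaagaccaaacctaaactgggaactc
The stretch begins 99 bases before the annotated start of C1ra and 250 bases before that of C1rb.

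**Figure D3:**
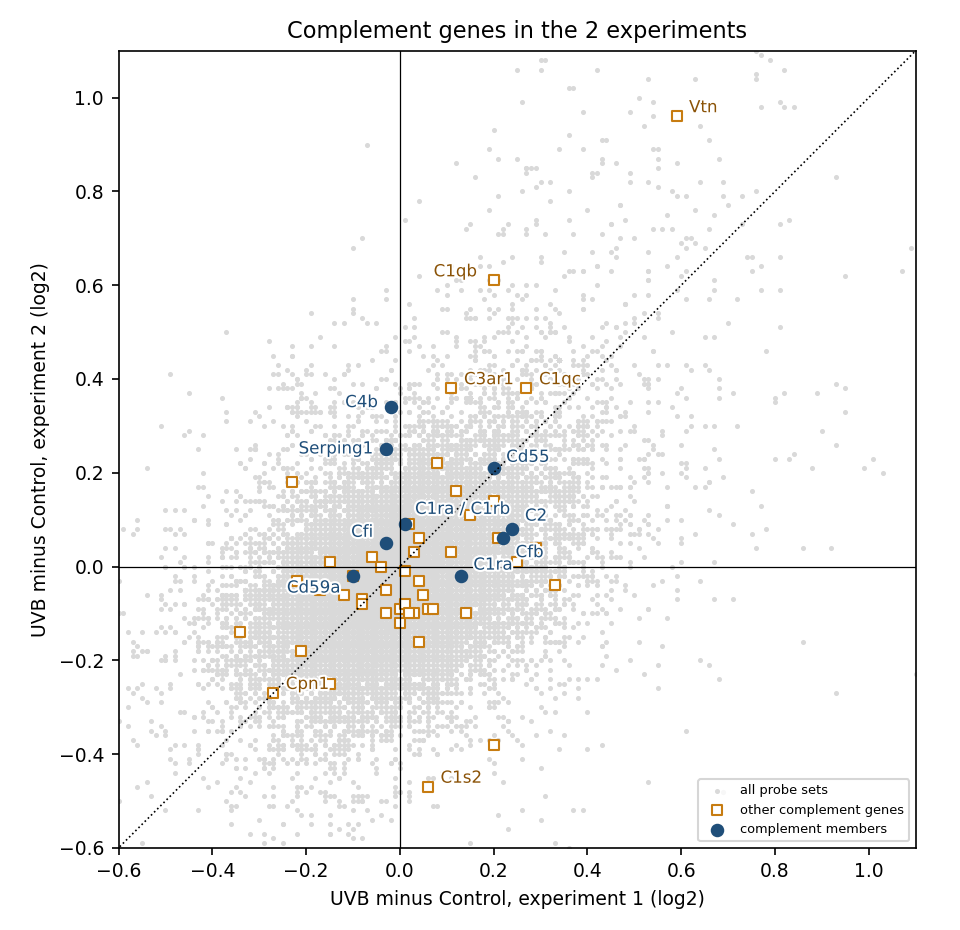
UVB minus Control in experiment 1 (horizontal) and experiment 2 (vertical), both as log2, for the 9 complement probe sets (blue), 46 other complement genes (open squares) and all probe sets (grey; those outside the axes are not drawn). The dotted line marks equal differences. Cd55 lies close to the line at 0.20 and 0.21, C4b and Serping1 near the vertical axis, and Vtn at 0.59 and 0.96.

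The rest of the pathway was read from a list of 51 other complement genes. Of these, 46 had a probe set, and C1rb had the one shared with C1ra. The other genes of the list were not analysed here. After UVB, 5 of the 46 were called higher and 3 lower, against 5.69% and 7.71% of all probe sets. None passed the thresholds of the study. In both experiments 15 were higher and 12 lower, against 24% and 37.4% of all probe sets. The median log2 fold change was −0.02, the same as over all probe sets.

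Vtn had the largest change of the list. It encodes vitronectin, a matrix and plasma protein that binds the terminal complex and keeps it out of membranes. Its log2 signals were 9.64 and 9.82 in UVB, against 9.05 and 8.86 in Control. It rose by 0.59 in experiment 1 and 0.96 in experiment 2, or 1.71-fold in the mean (log2 fold change 0.775, standard error 0.13, limma's adjusted p = 0.357). Photoreceptors are known to express Vtn. The median difference of the photoreceptor markers was 0.57 in experiment 1 and 1.04 in experiment 2, and that of the pigment epithelium markers 0.97 and 0.90. The part of these tissues in the change of Vtn was not tested.

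The 3 chains of C1q, the recognition molecule of the classical route, were higher in both experiments. C1qc rose, with 7.11 and 7.16 in UVB, against 6.84 and 6.78 in Control (log2 fold change 0.325, limma's adjusted p = 0.357). C1qa rose by 0.13, with 7.14 and 7.12 in UVB, against 6.99 and 7.01 in Control (limma's adjusted p = 0.357). C1qb had the largest difference of the 3 but was not called, at 7.76 and 7.97 in UVB, against 7.56 and 7.36 in Control (log2 fold change 0.405, limma's adjusted p = 0.371). C1s1, which encodes C1s, the partner of C1r, differed the other way and was not called, at 6.75 and 6.85 in UVB, against 7.09 and 6.99 in Control (log2 fold change −0.24, limma's adjusted p = 0.361). C3ar1, the C3a receptor of myeloid cells, was not called either, with 6.87 and 7.0 in UVB, against 6.76 and 6.62 in Control (log2 fold change 0.245, limma's adjusted p = 0.389).

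C1q and C3ar1 are made by macrophages and microglia. Of the macrophage and leukocyte markers, Cd68 had a log2 fold change of 0.59 and Adgre1 of 0.235, whereas Ptprc, the pan-leukocyte marker, had 0.10. The median difference of the list was 0.275 in experiment 1 and 0.205 in experiment 2. Itgam, a subunit of complement receptor 3, is itself on the marker list and has 4 probe sets. Its brightest, the only one read, fell, with 5.84 and 5.85 in UVB, against 6.05 and 6.03 in Control (limma's adjusted p = 0.357). The part of macrophages in the C1q values was not tested.

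Chromosome 1 held 8 measured complement regulators and receptors, Cd55 included. They are grouped here after their values were seen, and the group was not tested. C4bp, which encodes the C4b-binding protein and lies near Cd55, rose, with 5.65 and 5.62 in UVB, against 5.45 and 5.48 in Control (log2 fold change 0.17). Cr1l, which encodes the rodent regulator Crry, rose, with 7.24 and 7.26 in UVB, against 7.12 and 7.10 in Control (log2 fold change 0.14). Limma's adjusted p was 0.357 for both, and C4bp was under the 25th percentile on every array. Cd46, a cofactor of factor I that neighbours Cr1l, had a log2 fold change of 0.15 and was not called (limma's adjusted p = 0.386). Cd55b, the copy of Cd55 next to it, had −0.01, and Cr2, which neighbours Cr1l on the other side, had 0.055. The other two had log2 fold changes of −0.09 and −0.02, below 0.

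Cpn1 and Mbl1 fell. Cpn1 encodes a subunit of carboxypeptidase N, which trims C3a and C5a. It had 5.23 and 5.23 in UVB, against 5.50 and 5.50 in Control (log2 fold change −0.27). Mbl1, a mannose-binding lectin, had 5.30 and 5.25 in UVB, against 5.45 and 5.50 in Control (log2 fold change −0.20). Limma's adjusted p was 0.357 for both, and both were under the 25th percentile on every array. Clu, which encodes clusterin and has a role like that of vitronectin, had 12.88 and 12.88 in UVB, against 12.85 and 12.85 in Control (log2 fold change 0.03, limma's adjusted p = 0.616). Of the 7 terminal components, 0 were called in either direction by limma, and their log2 fold changes ran between −0.11 and 0.13. C5ar1, the C5a receptor, had a log2 fold change of 0.02.

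**Figure D4:**
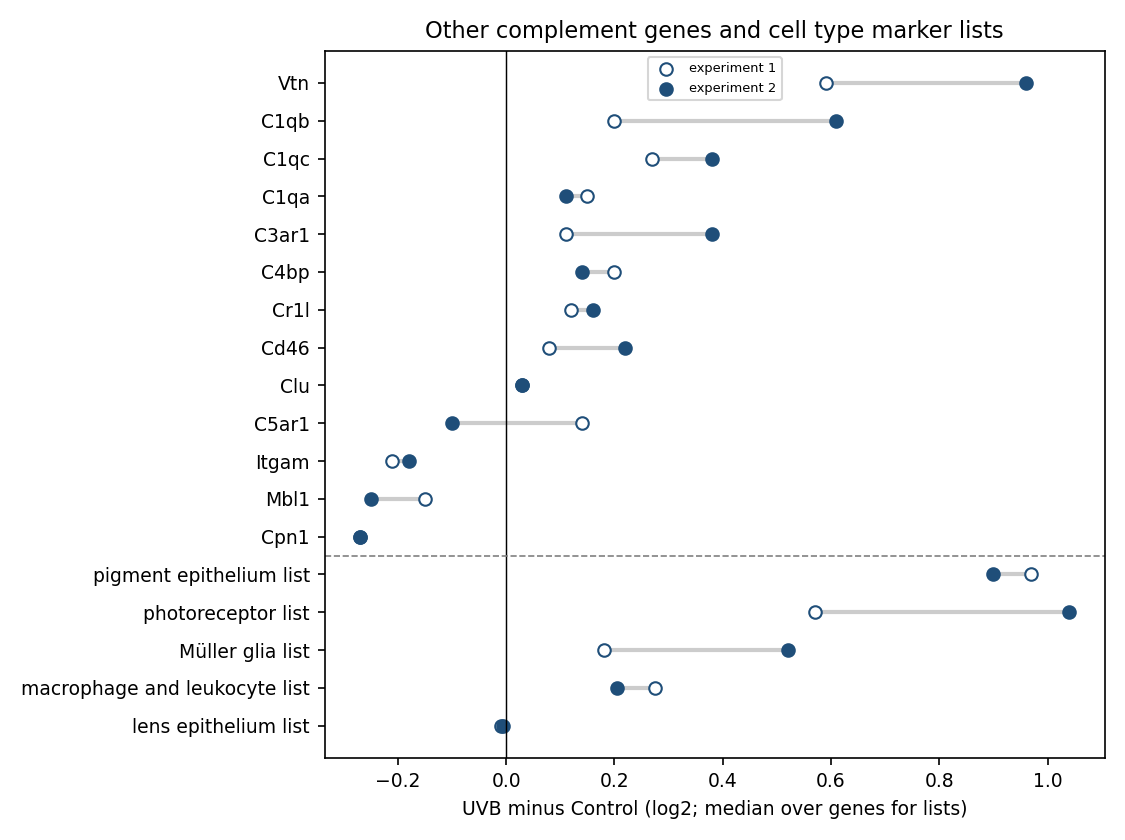
UVB minus Control, as log2, in experiment 1 (open circles) and experiment 2 (filled circles) for 13 other complement genes, above the dashed line, and for the medians of 5 marker lists below it. The 3 C1q genes and the macrophage and leukocyte list lie above 0 in both experiments, and Vtn lies near the photoreceptor list. The median of the lens epithelium list lies near 0, at −0.01 in experiment 1 and −0.005 in experiment 2.

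The genes with changes most like those of Cd55 were taken by the distance between their pairs of differences and its own, over both experiments. The candidates were 11890 probe sets with 1 gene symbol and above the median level, which leaves out genes at the level of Cd55 itself. Among these, the probe sets of Eml3, Eml5, Iqsec3, Mef2d and Ssbp4 were nearest, each at a distance of 0.01, and 50 probe sets lay within 0.05.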

How the data were processed

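The deposited values are log2 signals, which the authors normalized and rounded before deposit. The submitters' processing notes name Affymetrix Expression Console, without settings. The methods name a human array, whereas the annotation used here is of a mouse array. Of 28944 probe sets, 21789 had 1 gene symbol, 1621 several and 5534 none. Symbols were updated through RefSeq genes of GRCm38.p6.

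The members and lists were chosen with earlier results of these data known. Limma 3.58.1 in R 4.3.3 fitted UVB minus Control, two-sided, with the experiment as a block, since the methods compare eyes of the same mice. Titles without a number were taken as experiment 1. The summed signals of the 2 experiments were equal within 0.02 in 100% of probe sets, so experiment means had been equalized. Deviations of same-numbered arrays were therefore opposite (correlation −0.998), and a fit without the block underestimates the spread. Equal sums also mean that differences of the same sign in both experiments place both UVB arrays on one side of both Control arrays. Separation of the groups thus only repeats the agreement in sign. The block leaves 1 residual degree of freedom, to which the prior adds 1.18. Precision is limited by the number of arrays, and p-values measure the spread between these.

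In lists, a gene was read from its brightest probe set. Other complement genes were named if their unadjusted p was under 0.05, if they changed over 1.2-fold with 1 sign in both experiments, or from a set of names. Copies and neighbours of members were added. The fit was tested on simulated data. Alternatives were no block, an intensity trend, a robust prior, 3 scalings, fewer probe sets, the methods' t-test and leaving out each array.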

Additional observations from a re-analysis of the deposited data

How the results depend on the processing

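The count of members called higher, 1 in limma with the block, was 2 without the block, with a robust prior and with quantile normalization, where C2 joined Cd55. It was 0 among the 4 members above the median level, a part that leaves Cd55 out, and 1 in the other alternatives. Over all 28944 probe sets, 1646 were called higher with the block. That number was 4179 without the block, 2247 with a robust prior and 2191 with quantile normalization. No member was called lower or passed 1.8-fold and p 0.01 in any alternative. Of the other complement genes, 5 were called higher and 3 lower. These counts were 9 and 8 without the replicate block, where 4179 of all 28944 probe sets were called higher and 6841 lower. An intensity trend and median centring each left 3 called higher, against 1626 and 1339 of all probe sets. The 10 above the median level gave 1 and 1, against 916 and 1648 of 14448 such probe sets. The methods' t-test on the pairs called 0 of the other complement genes higher, against 491 of the 27731 probe sets it could test. The median log2 fold change of the members was 0.11, and lay between 0.01 and 0.08 when 1 array was left out. With the block, leaving out an array leaves the difference of the other experiment, which has no test. Cfi changed sign to −0.01 with median centring. Without either array of experiment 2, C4b was −0.02, Serping1 −0.03 and Cfi −0.03, and without either array of experiment 1, C1ra was −0.02, so that these 4 also changed sign when an array was left out.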

Other observations

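Genes of the interferon, interleukin 6 and acute phase response, which often accompany complement, were uneven. Of 22 measured, 4 were called higher and 1 lower in limma with the block, against 5.69% and 7.71% of all probe sets. In both experiments 11 were higher and 5 lower, against 24% and 37.4% of all probe sets. Gbp2, an interferon-induced GTPase read by a probe set shared with Gbp2b, had 7.06 and 7.08 in UVB, against 6.62 and 6.60 in Control. Socs3, a feedback inhibitor of interleukin 6 signalling, had 8.03 and 8.01 in UVB, against 7.75 and 7.78 in Control. Saa3, an acute phase protein, had 5.06 and 5.04 in UVB, against 4.68 and 4.70 in Control, and was under the 25th percentile on every array. Lcn2, an iron-binding acute phase protein, differed by 0.31 in experiment 1 and 1.57 in experiment 2, and A2m, a protease inhibitor, by −0.10 and 0.68. Il1b was called lower, by 0.15 in each experiment. Il6 had 3.13 and 3.19 in UVB, against 3.14 and 3.08 in Control and was also under the 25th percentile. Gbp2, Socs3 and A2m are named here after their values were seen.

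Of 7 endothelial markers, 2 were higher and 4 lower in both experiments, against 24% and 37.4% of all probe sets. Of 6 cornea and conjunctiva markers 1 was higher and 2 were lower, and the median difference of the list was 0.335 in experiment 1 and −0.16 in experiment 2. Among these, the keratin gene Krt12 differed by 0.86 and 0.04, Krt5 by 1.1 and −0.23 and Krt14 by 0.33 and −0.08, in experiments 1 and 2. Of 4 liver and plasma markers 0 were higher and 1 was lower.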
